A study of Mus musculus with 9 samples.

Results

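Cyp2c70, Trim12a, Cd1d2 and Gm6644 are 4 of the 23235 gene symbols measured by RNA sequencing of the embryonic mouse pancreas. They were picked by name because their levels appeared to switch between high and low from library to library, so their values are given as a description, without tests. Whole pancreas was dissected at e15.5 from wild-type embryos (WT), heterozygotes for the long noncoding RNA gene Blinc1 (Blinc1+/-, Het) and Blinc1 knockouts (Blinc1-/-, KO), with 3 libraries in each group. All 9 libraries came from a mixed background of C57BL/6 and 129Sv, and no allele other than that of Blinc1 is named. The labels give no strain genotype for single libraries and leave unsaid whether each library had its own embryo or litter. WT and Het each held libraries of both sexes, as given below, so neither group came from a single embryo. Libraries of the same sex within a group may share an embryo, so part or all of their spread may be technical. Blinc1 was not analysed here under that name, and the genotype labels were not checked against its transcript.

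Cyp2c70 encodes a liver cytochrome P450 that makes the muricholic acids of the mouse bile acid pool. CD1d molecules present lipids to natural killer T cells, and the mouse carries a neighbouring pair of such genes, Cd1d1 and Cd1d2, of which the Cd1d2 copy of C57BL/6 is known to hold a frameshift. Trim12a belongs to the interferon-linked Trim5 and Trim30 cluster, whose proteins include restriction factors against retroviruses. Gm6644 is annotated as a pseudogene of Akr1b3, the gene of aldose reductase, which turns glucose into sorbitol.

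The sequences show what separates each gene from its relatives and what stands before its start. RefSeq promoter sequences (GRCm38.p6) were matched for 2 of the 4 genes, Cyp2c70 and Trim12a, and each was found at 1 place on its mm9 chromosome. The 250 bases before the Cyp2c70 start (mm9, chr19:40261777-40262026, minus strand) are printed with a match to the HNF4 motif CAAAGTCCA in capitals, at bases -64 to -56 from the start. For Trim12a, the 250 bases before the start and the first 20 after it (mm9, chr7:111463990-111464259, minus strand) are printed, with a reverse-strand match to the interferon-stimulated response element (ISRE) in capitals, at bases 11 to 20.
Cyp2c70 promoter: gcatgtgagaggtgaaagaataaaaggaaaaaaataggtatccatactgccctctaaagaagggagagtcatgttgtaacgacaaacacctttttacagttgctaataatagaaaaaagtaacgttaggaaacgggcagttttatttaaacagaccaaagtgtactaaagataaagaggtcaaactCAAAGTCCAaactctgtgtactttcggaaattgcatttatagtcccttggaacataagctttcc
Trim12a promoter: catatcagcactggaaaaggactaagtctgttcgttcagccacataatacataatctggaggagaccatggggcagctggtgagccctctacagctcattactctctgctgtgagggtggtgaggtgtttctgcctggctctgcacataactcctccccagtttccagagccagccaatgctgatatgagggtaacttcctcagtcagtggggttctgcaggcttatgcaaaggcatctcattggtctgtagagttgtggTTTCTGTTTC

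Both strands of each 300-base window were searched for 4 motifs. CAAAGTCCA was present in 156 of 32851 RefSeq promoters of that length (0.475%) and the ISRE in 1131 (3.44%). Neither window held the HNF1 motif, found in 3 promoters (0.00913%), or the NKX2-2 letters TNAAGTG, found in 3790 (11.5%). A match of letters is a description of the window and not a measured site. Hnf4a, which encodes the factor that binds the first motif and was chosen for mention after its values were seen, lay between 16.1 and 21.1 FPKM in the 9 libraries.

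Cd1d2 and the pseudogene named Gm6644 have near-identical relatives, as does Trim12a (given below), and reads from such pairs are hard to assign. The coding sequences of Cd1d2 and Cd1d1 were identical at 973 of 1005 aligned bases (96.8%), with a longest shared run of 245 bases. A 120-base stretch of Cd1d2 (mm9, chr3:86791475-86791594, plus strand) and its counterpart in Cd1d1 (chr3:86802143-86802262, minus strand) are printed with their 12 differing bases in capitals. The pseudogene copy that GENCODE names Gm6644 lies on chromosome 1 and matched the Akr1b3 coding sequence at 945 of 948 bases (99.7%), with a longest shared run of 535. The levels given below under the name Gm6644 were listed at another position, on chromosome 6 inside Akr1b3. In the 120-base stretch printed from Akr1b3 (chr6:34260516-34260635, minus strand) and from that copy (chr1:55501320-55501439, minus strand), 1 base differs and stands in capitals.
Cd1d2: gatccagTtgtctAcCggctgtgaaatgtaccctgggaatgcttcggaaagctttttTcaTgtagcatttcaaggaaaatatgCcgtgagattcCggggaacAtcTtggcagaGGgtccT
Cd1d1: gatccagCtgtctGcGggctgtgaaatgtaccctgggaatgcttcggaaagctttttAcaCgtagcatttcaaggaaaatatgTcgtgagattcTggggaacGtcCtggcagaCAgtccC
Akr1b3: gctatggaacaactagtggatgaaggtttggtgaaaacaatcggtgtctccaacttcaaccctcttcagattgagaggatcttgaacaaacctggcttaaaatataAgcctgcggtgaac
Gm6644 copy: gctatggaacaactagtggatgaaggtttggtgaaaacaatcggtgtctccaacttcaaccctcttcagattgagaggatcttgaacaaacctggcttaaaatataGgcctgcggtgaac

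Depth, read from the deposited confidence bounds, was between 19532984 and 25437255 fragments per library. Xist and the Y-linked gene Ddx3y marked WT replicate 3, Het replicate 3 and all 3 KO libraries as female, at 35.0 to 40.3 FPKM of Xist, and the other 4 as male. Genotype and sex therefore overlap in the KO group and cannot be told apart there. Nkx2-2, the islet transcription factor gene beside Blinc1, was at 15.2, 21.7 and 25.5 FPKM in WT replicates 1 to 3. It was at 6.37, 19.0 and 13.4 in Het replicates 1 to 3 and at 24.9, 6.08 and 5.48 in KO replicates 1 to 3. KO replicate 1 thus lay within the WT range of Nkx2-2, and Het replicate 1 lay near the other KO libraries. All 10 pancreas markers examined (Pdx1, Ptf1a, Cpa1 and others) passed the filter for testing, and Cpa1, a digestive enzyme gene of acinar cells, was the highest at 7457 to 11632 FPKM.

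Cyp2c70 (mm9 chromosome 19, 40227851 to 40261776, minus strand, protein coding) had 2 levels. In WT replicates 1 to 3 it was at 8.42, 9.51 and 12.2 FPKM (fragments normalised to transcript length and sequencing depth), from 314, 316 and 442 implied fragments. In Het replicates 1 to 3 it was at 0.159, 9.41 and 11.1 FPKM, from 5, 353 and 360 fragments. In KO replicates 1 to 3 it was at 0.895, 1.06 and 0.669 FPKM, from 35, 42 and 21 fragments. Thus 5 libraries were high, the 3 WT and 2 of the Het, and 4 were low, the 3 KO and Het replicate 1. The lowest of the high libraries, WT replicate 1, was 7.93-fold above the highest of the low ones, KO replicate 2. Their deposited bounds did not touch, with a lower bound of 7.47 in WT replicate 1 and an upper bound of 1.39 in KO replicate 2. Among the low libraries Het replicate 1 was itself lower than the KO libraries, with an upper bound of 0.302 against lower bounds of 0.377 to 0.735 there. In these whole-organ libraries, fewer cells that make the RNA and less RNA per cell cannot be told apart.

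Group values for Cyp2c70 were 10.0 ± 1.95 FPKM in WT (SD, n = 3), 6.89 ± 5.89 in Het and 0.875 ± 0.198 in KO. As log2(FPKM + 1), a scale that shrinks changes at low levels, the KO to WT difference was -2.55 (standard error 0.73) and the KO to Het difference -1.50 (standard error 0.73). The Het to WT difference, -1.05 (standard error 0.73), came from 1 library: without Het replicate 1 it was 0.04. Without both Het replicate 1 and KO replicate 1, the KO to WT difference was -2.56 and the KO to Het difference -2.60.

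Cyp2c70 was the only well-detected gene of its family. Of the other 15 Cyp2c genes examined, 14 stayed below 0.5 FPKM in all 9 libraries, and Cyp2c68 reached 0.779. Their summed level was 0.271 to 0.928 FPKM per library. Its closest relative among the 14 compared, Cyp2c55, shared 76.9% of aligned coding bases with a longest run of 25. Of 20 genes of bile acid synthesis and transport, 9 were below 0.5 FPKM in all libraries. Cyp7a1, the rate-limiting enzyme of bile acid synthesis, was at 0.0487 FPKM or less, and Cyp8b1, which sets the share of cholic acid, at 0.24 or less; both were chosen for mention after their values were seen. The highest of the list were Hsd17b4, at 33.6 to 40.8 FPKM, and Scp2, at 33.4 to 39.5, which act in peroxisomal oxidation of side chains. Of the 10 tested, 0 passed in either direction in KO against WT, and their median log2 difference was 0.05 beside -0.03 over all 13306 genes tested. As 0 of all tested genes passed, the count says nothing particular to this list or to those below.

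Liver markers were measured beside Cyp2c70 because liver lies next to the pancreas. The 17 summed to 794 to 993 FPKM in WT, 598 to 951 in Het and 613 to 899 in KO, and most of that came from Ambp and Ttr. Of the 10 tested, 0 passed in KO against WT, as was so for all 13306 genes tested. Their median log2 difference was -0.32, beside -0.03 over all tested genes. Alb, the defining liver gene, was at 36.4 FPKM in WT replicate 2 and at 1.68 to 5.04 in the other 8 libraries; it was chosen for mention after its values were seen. Cyp2c70 in WT replicate 2 lay between the other WT libraries. Among the low Cyp2c70 libraries, KO replicate 3 had the second highest Alb of all. By the summed level, the lowest libraries were Het replicate 1 at 598, KO replicate 3 at 613 and KO replicate 2 at 750. All of them were low in Cyp2c70. The same 3 libraries had the lowest Ambp and Ttr, which made up most of the sum, and the lowest Nkx2-2 and insulin gene Ins2. Their Alb, at 2.88, 5.04 and 3.17 FPKM, was not the lowest, which was 1.68 in KO replicate 1. That library, also low in Cyp2c70, had a summed level of 899, within the WT range. The part of liver tissue in the Cyp2c70 levels was not tested further.

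**Figure D1:**
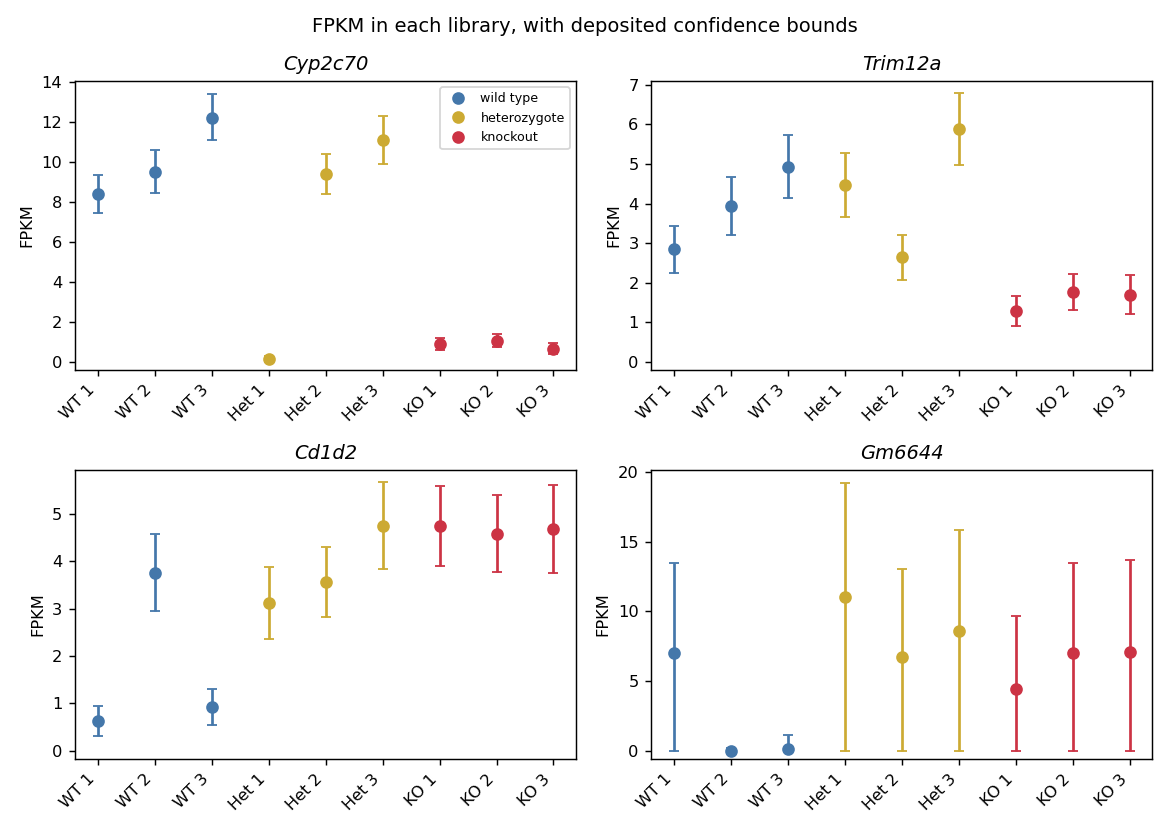
FPKM (vertical axis) of the 4 genes in each of the 9 libraries, coloured by genotype, with bars for the deposited lower and upper confidence bounds. Cyp2c70 falls into 5 high and 4 low libraries, Cd1d2 into 7 and 2, Trim12a runs in small steps from 1.28 to 5.89, and every Gm6644 bar reaches down to 0.

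Cd1d2 (chromosome 3, 86790508 to 86793454, plus strand) is protein coding in GENCODE and a transcribed pseudogene in RefSeq. It was at 0.618, 3.76 and 0.914 FPKM in WT replicates 1 to 3, from 15.1, 87 and 23 implied fragments. It was at 3.12, 3.57 and 4.75 FPKM in Het replicates 1 to 3 and at 4.75, 4.59 and 4.68 in KO replicates 1 to 3, from 67 to 129 fragments in these 6 libraries. Only WT replicates 1 and 3 were low, and WT replicate 2 lay among the Het values. The step from WT replicate 3 up to Het replicate 1 was 3.41-fold, and their bounds did not touch, with an upper bound of 1.3 in WT replicate 3 and a lower bound of 2.36 in Het replicate 1. The 7 high libraries spanned 3.12 to 4.75 FPKM, and the 3 KO libraries differed by less than 0.2 FPKM.

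Group values for Cd1d2 were 1.76 ± 1.74 FPKM in WT (SD, n = 3), 3.81 ± 0.842 in Het and 4.67 ± 0.0813 in KO. The log2 difference was 1.21 (standard error 0.34) for KO against WT, 0.96 (0.34) for Het against WT and 0.25 (0.34) for KO against Het. Both differences from WT share the same WT libraries. With the log offset lowered from 1 to 0.1, the differences from WT became 1.76 for KO and 1.45 for Het. On implied fragments with voom they were 1.90 for KO and 1.58 for Het.

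The neighbouring copy Cd1d1, whose start lies 0.009 Mb away, did not follow Cd1d2. Cd1d1 was at 11.7, 12.4 and 10.4 FPKM in WT, at 11.2, 11.2 and 12.2 in Het and at 10.6, 11.6 and 13.0 in KO. The ratio of Cd1d2 to Cd1d1 FPKM was 0.0528 and 0.0878 in WT replicates 1 and 3, 0.303 in WT replicate 2, 0.278 to 0.39 in Het and 0.361 to 0.449 in KO. Reads that fit both copies could be shared between them in the authors' estimates, so the low values of Cd1d2 are uncertain. Of the 14 other genes of CD1d lipid presentation, all 14 were tested and 0 passed in KO against WT, beside 0 of all 13306 tested genes. Their median log2 difference was -0.04, beside -0.03 over all tested genes. B2m, the light chain of CD1d, was at 143 to 176 FPKM, and the lysosomal genes Psap, Lamp1 and Ctsl were at 168 to 218, 196 to 207 and 205 to 293. Immune cell markers summed to 400 to 461 FPKM in WT, 367 to 448 in Het and 310 to 375 in KO. The highest of them was C1qa, at 134 to 185 FPKM. Their part in the Cd1d2 levels was not tested.

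Trim12a (chromosome 7, 111448411 to 111464009, minus strand, protein coding) was graded rather than switched. It was at 2.84, 3.93 and 4.93 FPKM in WT replicates 1 to 3, from 92, 115 and 156 implied fragments. It was at 4.46, 2.64 and 5.89 in Het, from 123, 86 and 168, and at 1.28, 1.76 and 1.70 in KO, from 44, 60 and 47. Every KO library was below every WT and Het library, but the step was 1.5-fold, from KO replicate 2 to Het replicate 2. That step of 0.40 on the log2(FPKM + 1) scale was little larger than the next, 0.36, between WT replicates 1 and 2. The bounds of KO replicate 2 and Het replicate 2 overlapped, with an upper bound of 2.21 in the first and a lower bound of 2.07 in the second. Split on linear FPKM, 4 libraries instead of 6 would be called high, so the name on-off does not describe Trim12a.

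Group values for Trim12a were 3.90 ± 1.05 FPKM in WT (SD, n = 3), 4.33 ± 1.63 in Het and 1.58 ± 0.261 in KO. Its log2 difference was -0.91 (standard error 0.23) for KO against WT, -1.0 (0.23) for KO against Het and 0.10 (0.23) for Het against WT. With sex of the embryo as a covariate, the first became -1.27 and the second -1.36. All KO libraries were female, so the sex term rested on WT and Het alone. Their only female libraries, replicate 3 of each, also had the highest Trim12a of their groups. The last changed sign when WT replicate 1 (-0.07) or Het replicate 3 (-0.11) was left out.

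The near copy Trim12c shared 859 of 891 coding bases with Trim12a (96.4%), with a longest run of 118, and reads could be shared between them too. Trim12c was at 5.43, 4.90 and 3.42 FPKM in WT, at 3.84, 3.75 and 3.90 in Het and at 4.39, 3.86 and 3.82 in KO. The ratio of Trim12a to Trim12c was 0.523, 0.803 and 1.44 in WT, 1.16, 0.703 and 1.51 in Het, and 0.291, 0.455 and 0.446 in KO, so the KO ratios were again the lowest. Of the other 10 measured genes of the cluster, 4 were tested and 0 passed, beside 0 of all 13306 tested genes. Their median log2 difference was -0.10 for KO against WT, beside -0.03 over all tested genes. Trim34a, at 0.813 to 2.29 FPKM, had the highest correlation with Trim12a among the 7 tested genes within 1 Mb (Pearson r 0.79 over 9 libraries). The others were Trim12c and the globin genes Hbb-b1, Hbb-b2, Hbb-y, Hbb-bh1 and Beta-s, so that rank says little. The highest library of Trim34a, Het replicate 3, was also that of Trim12a. Of 18 interferon-induced genes, 11 were tested and again 0 passed in KO against WT, with a median log2 difference of -0.20 beside the same -0.03. Bst2, a tether of budding virus, was at 53.0 to 90.7 FPKM.

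**Figure D2:**
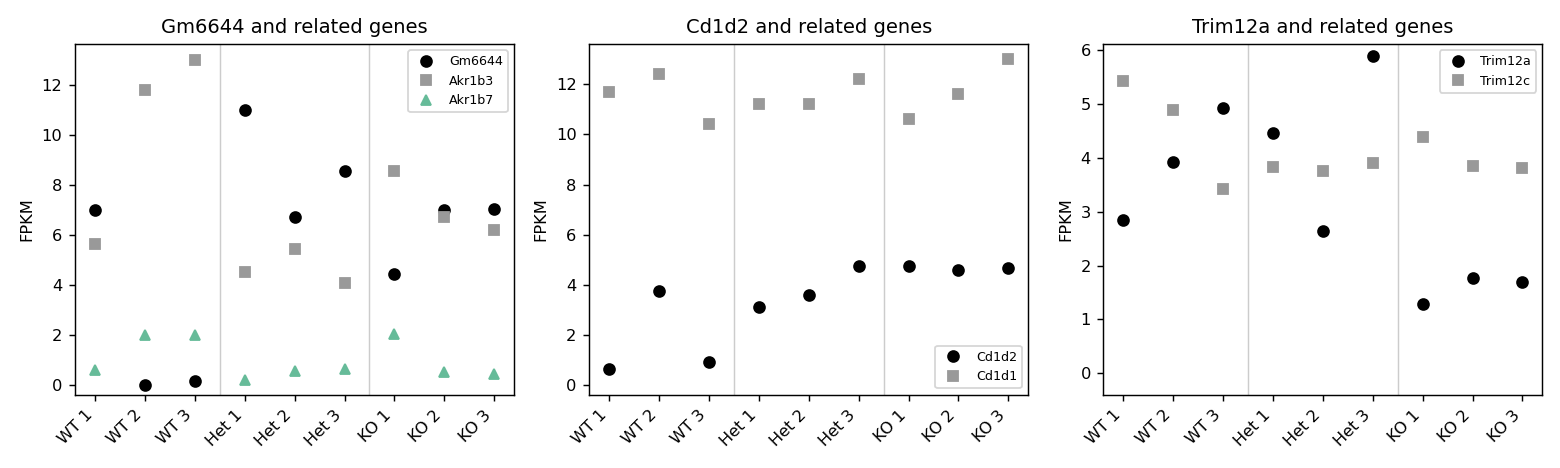
FPKM (vertical axis) of Gm6644, Cd1d2 and Trim12a (black circles) and of their closest relatives (grey squares, green triangles) in the 9 libraries. Akr1b3 is high where Gm6644 is near 0 and their sum stays between 11.8 and 15.6, whereas Cd1d1 stays between 10.4 and 13.0 and Trim12c between 3.42 and 5.43.

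Gm6644 was listed at 7.0, 0.00183 and 0.145 FPKM in WT replicates 1 to 3, at 11.0, 6.70 and 8.56 in Het and at 4.44, 7.01 and 7.05 in KO. WT replicates 2 and 3 were near 0 and the other 7 libraries lay between 4.44 and 11.0. All 9 estimates bore the status LOWDATA and a lower bound of 0. The upper bounds were 0.166 and 1.11 FPKM in WT replicates 2 and 3 and 9.65 to 19.2 elsewhere, so that each interval of the 7 higher libraries covered the near-zero values.

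The position listed for Gm6644 (chromosome 6, 34253934 to 34267443) lies wholly inside Akr1b3 (34253930 to 34267489), over all 13510 of its bases. GENCODE places the gene of that name on chromosome 1 (55500577 to 55501908, minus strand, pseudogene), and RefSeq lists Akr1b3p as its synonym. Akr1b3 was at 5.65, 11.8 and 13.0 FPKM in WT replicates 1 to 3, at 4.53, 5.44 and 4.08 in Het and at 8.55, 6.72 and 6.19 in KO. Its highest libraries were WT replicates 2 and 3, the same ones where Gm6644 was near 0, and the correlation of the pair was -0.93 over 9 libraries. Both are estimated from reads over the same positions, so their values are not independent and the levels of Gm6644 are uncertain. The sum of both levels was nearly steady, at 12.7, 11.8 and 13.1 FPKM in WT replicates 1 to 3, 15.6, 12.1 and 12.6 in Het and 13.0, 13.7 and 13.2 in KO. As listed, the summed level had no low libraries, and the estimates divided it differently between the 2 names. Whether the level of Akr1b3 itself differed between libraries cannot be told from these values and was not tested. No fragment numbers are given for this pair, because the bounds implied 14.9 to 28.5 fragments per FPKM for Akr1b3, against a narrower 34.1 to 42.9 for Cd1d1, and so do not behave as counting error alone.

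Akr1b7, an aldo-keto reductase gene 0.108 Mb away, had the same 3 highest libraries as Akr1b3 (WT replicates 2 and 3 and KO replicate 1), in another order. It was at 0.577, 1.98 and 1.98 FPKM in WT, at 0.183, 0.535 and 0.619 in Het and at 2.02, 0.508 and 0.411 in KO, and its correlation with Gm6644 was -0.84. Akr1b8 and Akr1b10, between Akr1b3 and Akr1b7 on the chromosome and chosen for mention after their values were seen, had correlations of -0.45 and -0.44. They ranged over 3.41 to 5.40 and 6.64 to 11.5 FPKM. Group values for Gm6644, given for completeness, were 2.38 ± 4.00 FPKM in WT (SD, n = 3), 8.77 ± 2.17 in Het and 6.17 ± 1.5 in KO. The log2 difference was 1.75 (standard error 0.66) for KO against WT, 2.20 (0.66) for Het against WT and -0.45 (0.66) for KO against Het. These differences depend on the offset added before the log: with 0.1 the first became 3.45 and the second 3.95, and without WT replicate 1 the first was 2.72.

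All 4 genes passed the filter for testing, 1 FPKM in at least 3 libraries. Among the 13306 tested genes, 0 were called in KO against WT at a Benjamini-Hochberg adjusted p of 0.05 (limma), 0.0% in each of the 3 comparisons, the 4 genes included. In KO against WT, 2 of the 4 (Cyp2c70 and Trim12a) were lower in every KO library, beside 6.64% of all tested genes, and 1 (Cd1d2) was higher in every KO library, beside 4.55%. In Het against WT, 0 of the 4 separated in either direction, beside 7.05% of tested genes lower and 3.54% higher. In KO against Het, Trim12a was lower in every KO library, beside 2.43%, and 0 were higher in all, beside 3.48%. These values helped to choose the genes, so nothing is read from the shares.

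A gap of at least 2 on the log2(FPKM + 1) scale, with 2 or more libraries on each side, was met by 22 tested genes (0.165%). Cyp2c70 (gap 2.19) and Gm6644 (2.25) were among them, and Cd1d2 (1.11) and Trim12a (0.40) were not. Counted without the rule of 2 libraries on each side, gaps as large as that of Cd1d2 were found in 58 genes (0.436%). Gaps as large as that of Trim12a were found in 615 (4.62%). These 2 counts include genes where 1 library alone stood apart. Of the 22, 11 were small RNA genes, 5 were sex-linked, and the 6 others were Cyp2c70, Gm6644, Hba-a2, Pla2g1b, Rpl21 and Tmem186.

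Genotype matched the states only in part. Cyp2c70 was high in WT and Het and low in KO in 8 of 9 libraries, with Het replicate 1 the exception, and the lower step of Trim12a held all 3 KO libraries and no other. For Cd1d2 and Gm6644 the low libraries were both WT, but the third WT library was high, and it was a different one for each gene: WT replicate 2 for Cd1d2 and WT replicate 1 for Gm6644. All 3 KO libraries had 1 combination of states, with Cyp2c70 and Trim12a low and Cd1d2 and Gm6644 high. The 3 WT libraries had 3 different combinations and the Het libraries 2, which made 6 combinations over 9 libraries. These counts, and the agreements given below, include Gm6644, whose levels are uncertain, and Trim12a, which was graded rather than switched. Strain alleles of single libraries were not analysed here, and agreement with C57BL/6 or 129 alleles was not tested.

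Against Nkx2-2, split in the same way into 6 high libraries (13.4 to 25.5 FPKM) and 3 low ones (5.48 to 6.37), Cyp2c70 had the same state in 8 of 9. The exception was KO replicate 1, with Nkx2-2 at 24.9 and Cyp2c70 at 0.895 FPKM. Het replicate 1, the low exception by genotype, had Nkx2-2 at 6.37 FPKM, so it was low in both. Within the high libraries the levels did not run in the same order: Het replicate 3 had the second highest Cyp2c70, at 11.1 FPKM, and the lowest Nkx2-2 of these, at 13.4. Trim12a had the same state as Nkx2-2 in 7 libraries, Het replicate 1 and KO replicate 1 being the exceptions. Cd1d2 and Gm6644 had it in 4 each. By sex, Cyp2c70 was high in males and low in females in 6 of 9 libraries, Trim12a in 7, and Cd1d2 and Gm6644 in 4 each. Female WT replicate 3 and Het replicate 3 had 12.2 and 11.1 FPKM of Cyp2c70, and male Het replicate 1 had 0.159.

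**Figure D3:**
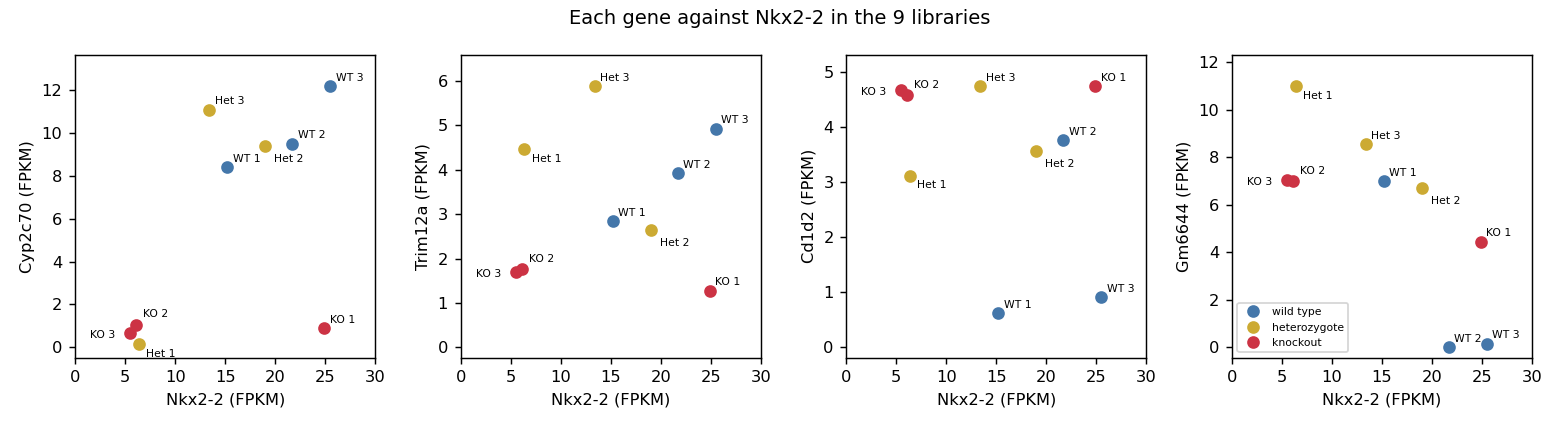
FPKM of each of the 4 genes (vertical axes) against FPKM of Nkx2-2 (horizontal axes), 1 point per library, coloured by genotype. KO replicate 1 stands apart at the lower right for Cyp2c70, with Nkx2-2 at 24.9 and Cyp2c70 at 0.895 FPKM.

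Between the 4 genes, Cyp2c70 and Trim12a had the same state in 8 of 9 libraries, with Het replicate 1 again the exception, at 0.159 FPKM of Cyp2c70 and 4.46 of Trim12a. Cd1d2 and Gm6644 had the same state in 7, with WT replicates 1 and 2 the exceptions. The other 4 pairings had it in 3 or 4. Pearson r on the log2(FPKM + 1) scale over the 9 libraries was 0.56 for Cyp2c70 with Trim12a, 0.29 for Cd1d2 with Gm6644 and between -0.27 and -0.50 for the others. These correlations are descriptions over libraries that differ in genotype, sex and depth.

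Neighbouring genes were compared with each of the 4 by their pattern across the libraries. Within 1 Mb of Cyp2c70, 8 genes were tested and 0 had a Pearson r of at least 0.8 in size, beside 1.03% of all tested genes. Around Trim12a, where most of the tested genes were globin genes, the count was 0 of 7, beside 0.549%. Around Cd1d2 it was 1 of 20 (5.0%, beside 0.353%), the ribosomal protein gene Rps3a, which ran opposite at -0.85 with 317 to 464 FPKM. Around the listed position of Gm6644 it was 2 of 13 (15.4%, beside 0.834%), the Akr1b3 and Akr1b7 described above. Each count is 2 or less and cannot carry a comparison with the share over all genes.

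**Figure D4:**
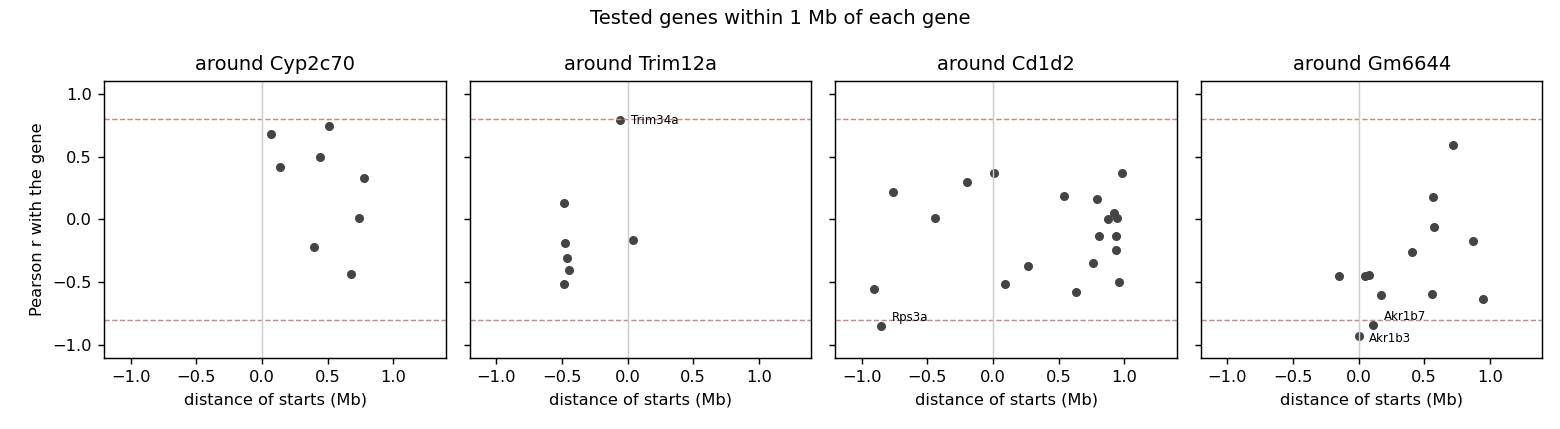
Pearson r over the 9 libraries (vertical axis) between each of the 4 genes and every tested gene within 1 Mb, against the distance between starts in Mb (horizontal axis), with dashed lines at 0.8 and -0.8. Only Rps3a around Cd1d2 and Akr1b3 and Akr1b7 around Gm6644 pass a dashed line, all of them below 0.

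The tested genes most like each of the 4 across the 9 libraries lay mostly on other chromosomes and moved far less. For Cyp2c70 they were Frmd4b (r 0.93, 7.38 to 9.32 FPKM), Bambi-ps1 (0.93, 0.849 to 1.87), Gimap5 (0.91), Gm1976 (0.91) and Maml2 (0.90). For Trim12a they were Clec2l (0.93, 1.35 to 2.57 FPKM), Sdcbp2 (0.88), Ufd1l (0.87), Isg15 (0.87, 0.878 to 2.30) and Ftl1 (0.86). For Cd1d2 they were Ndufa12 (0.90, 23.3 to 55.9 FPKM), Mfsd11 (0.87), Cog1 (0.87), Asna1 (0.86) and Zbtb49 (0.85). For Gm6644 they were Ccdc22 (0.94), Col20a1 (0.93), Nln (0.92), Msl3l2 (0.91) and Vezt (0.91). The ratio of highest to lowest library in these 20 genes was 1.1 to 2.62, whereas it was 76.6 for Cyp2c70, 7.69 for Cd1d2 and 4.60 for Trim12a. Isg15 encodes an interferon-induced ubiquitin-like protein, and Ndufa12 a subunit of respiratory complex I. Each set holds the highest of 13305 correlations over 9 points, and nothing about shared control is read from it.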

How the data were processed

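RNA from 9 whole-pancreas libraries was measured as FPKM in tables deposited by the authors, with lower and upper FPKM confidence bounds and a status word per gene, per the file headers. TopHat 2.0.4 placed reads on mm9 with up to 4 mismatches and 10 hits, per the series' design text. The submitters' processing notes also name CASAVA 1.8.2, Cufflinks and DESeq. For the annotation and the use of strand, the answer is not given in the sources used here, so overlapping genes and near-identical copies are uncertain.

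The FPKM of 248 symbols with several loci were summed, and 4 symbols with failed estimates for excess data were dropped. Implied fragments were computed as those whose counting error alone would give the upper bound; this did not hold for Akr1b3 and Gm6644, which overlap, and no fragments are given for them. Of single-locus symbols found by name, 99.7% overlapped GENCODE on mm9. All 9 libraries entered 1 limma 3.58.1 fit (R 4.3.3) on log2(FPKM + 1) with genotype as the only term, tested on simulated data first. Genes with 1 FPKM in at least 3 libraries (13306) were tested, two-sided, with Benjamini-Hochberg adjustment and a threshold of 0.05. High and low libraries were divided at the largest gap between neighbouring values. Named genes were the 4 genes, Nkx2-2, Xist, Ddx3y, for each gene the 5 with the highest correlation and those within 1 Mb at 0.8 or more in size, relatives from the same family, and up to 4 genes per list by level. The members, lists and rules were chosen with earlier results of these data known. Alternatives covered the offset, filter, scaling, voom, sex, replicate block, locus choice, failed estimates and each library left out.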

Additional observations from a re-analysis of the deposited data

How the results depend on the processing

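With 3 libraries a group, limma called 0 genes in each comparison, although 1117, 522 and 296 had an unadjusted p under 0.05 in KO against WT, Het against WT and KO against Het. With voom on implied fragments these were 1166, 505 and 275, and 0 were called. Leaving out 1 library gave 0 to 1, 0 to 7 and 0 to 4 called genes in the same order. The 7 and the 4 came without KO replicate 1. Gm6644 was called in both comparisons with WT without WT replicate 1, and Cd1d2 in KO against WT without WT replicate 2. Cyp2c70 was called in both comparisons with KO without Het replicate 1. Each time, the library left out was the one whose state differed from the rest of its group. The 4 genes were chosen with these values known, so nothing is read from calls of them. Without both KO replicate 1 and Het replicate 1, a choice made after seeing the data, 4, 5 and 5 were called, Cyp2c70 being among them in both comparisons with KO. With a replicate block, 1 gene was called in Het against WT and 0 in the others. Same-numbered libraries (1, 2, 3) correlated at -0.12, -0.12 and 0.11 between KO and WT, 0.09, -0.19 and 0.18 between Het and WT, and 0.29, 0.27 and 0.05 between KO and Het; not all passed 0.1, so the numbers were not taken to pair the libraries. The KO to WT log2 differences of the 4 genes kept their sign in all 18 alternatives: -3.49 to -2.41 for Cyp2c70, -1.27 to -0.76 for Trim12a, 0.91 to 1.90 for Cd1d2 and 1.22 to 3.45 for Gm6644. Without Het replicate 3, the Cyp2c70 difference was -0.89 for KO against Het and -1.66 for Het against WT. With sex as a covariate, a term that rested on WT and Het alone, the Gm6644 difference for KO against Het was -0.01. On linear FPKM, 4 libraries of Trim12a were high. With an offset of 0.1, 37 genes had on-off values. The share of neighbours passing 0.8 around Cyp2c70, Trim12a, Cd1d2 and Gm6644 was 0.0% to 12.5%, 0.0% to 14.3%, 0.0% to 5.0% and 7.69% to 23.1% as single libraries were left out, 1 gene more or less deciding each. Within 5 Mb it was 3.9% for Trim12a, 0.787% for Cd1d2 and 3.51% for Gm6644. At 0.9 it was 0.0% for Cd1d2 and 7.69% for Gm6644; upper-quartile scaling gave 0.0% for Cd1d2, and an offset of 0.1 gave 7.69% for Gm6644. The cause was not tested.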

Other observations

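Nnt, the mitochondrial transhydrogenase gene that C57BL/6J is known to carry in truncated form, was at 26.5, 25.1 and 25.0 FPKM in WT replicates 1 to 3, at 32.4, 19.4 and 33.3 in Het and at 34.3, 20.5 and 33.9 in KO. Het replicate 2 and KO replicate 2 were the lowest, the 3 WT libraries lay between, and the remaining 4 were the highest. That order matched neither the states of Cyp2c70 nor those of Cd1d2. The same 2 lowest libraries had the lowest Bst2 with Het replicate 3, at 56.1 and 53.0 FPKM beside 60.1. Casp4, which 129 strains are known to carry as an inactive allele, ranged from 0.326 FPKM in Het replicate 2 to 1.29 in WT replicate 2. It was not tested, as it did not reach 1 FPKM in at least 3 libraries.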
